A study of Mus musculus with 12 samples.

Results

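The 43 genes followed here are cell cycle genes: 9 G1 cyclins, cyclin-dependent kinase (CDK) inhibitors and E2f1, 11 genes of DNA replication and nucleotide supply, and 23 genes of G2 and mitosis. They were taken by name from the gene column of the scanner output, where all 43 had at least 1 probe and together 62 of the 55681 probes. The set is a functional one defined by gene names and not by a measured value, but it was chosen with earlier results of these data known. RNA was from the left ventricular wall with the apex and without the septum of mice aged 6 months, hybridized to one-colour Agilent arrays with 1 mouse per array. The study asked how loss of the cardiac transcription factor Nkx2-5 from trabecular muscle, the muscle ridges that line the embryonic ventricle, changes the adult heart.

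Control hearts and 2 kinds of mutant hearts were compared, 4 of each. In the mutants Floxed-Nkx2-5-ΔNeo alleles were deleted by Cx40-creERT2, a tamoxifen-inducible Cre recombinase driven from the Cx40 (Gja5) locus, which is active in trabecular muscle. Tamoxifen was given to the pregnant mother. For the group called Nkx2-5ΔTrbE10 (here TrbE10) this was on E10.5 and again on E11.5, while trabeculae form. For Nkx2-5ΔTrbE14 (here TrbE14) the days were E13.5 and then E14.5, while trabeculae compact. The sample labels call these groups Nkx2-5Δtrab and Nkx2-5Δcomp. For the controls the labels give no injection, whereas the methods describe littermates homozygous for the floxed allele (fl/fl) and without Cre. Pups were delivered by caesarean and raised by CD1 foster mothers. Deletion was limited to the descendants of Cx40-positive cells, so that each ventricle still held undeleted muscle. Non-muscle cells were also part of the tissue. The log2 signal of Nkx2-5 in whole ventricle was lower than in control by a difference of -0.66 ± 0.14 in TrbE10 (SE, adjusted p = 0.0459) and, in TrbE14, of -0.59 ± 0.14 (adjusted p = 0.106), with no overlap in either.

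A dividing cell passes from G1 into DNA synthesis when D-type and E-type cyclins with their CDKs inactivate the retinoblastoma protein and release E2F factors, which switch on genes for replication. CDK inhibitors such as p21, p27 and p16 hold this step back. Genes for G2 and mitosis follow, many of them through the DREAM and MuvB-FOXM1 complexes, and most muscle cells of the adult mouse heart have left the cycle, so that the RNA of these genes in whole ventricle can come from the few cells of any type that cycle. In such bulk RNA a change in the number of cells of a type and a change in RNA per cell cannot be told apart.

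To show the letters through which these classes of genes are known to be controlled, the 250 bases before the RefSeq start site (GRCm38.p6) are printed for 2 replication genes and 2 mitotic genes whose values are given below, 5′ to 3′ on the strand of the gene. Capitals mark 3 motifs on either strand: an E2F motif (TTTCCCGC, TTTCGCGC, TTTGCCGC or TTTGGCGC), the cell cycle homology region CHR (TTTGAA) and the CCAAT box (CCAAT). Spellings of the E2F motif can overlap each other.
Mcm3, chr1:20820313-20820562, minus strand: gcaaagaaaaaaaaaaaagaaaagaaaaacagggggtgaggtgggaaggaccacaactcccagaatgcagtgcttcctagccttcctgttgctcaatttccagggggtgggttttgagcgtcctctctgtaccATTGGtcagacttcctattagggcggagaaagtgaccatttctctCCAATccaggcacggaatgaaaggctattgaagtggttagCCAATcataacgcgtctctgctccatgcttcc
Mcm6, chr1:128359706-128359955, minus strand: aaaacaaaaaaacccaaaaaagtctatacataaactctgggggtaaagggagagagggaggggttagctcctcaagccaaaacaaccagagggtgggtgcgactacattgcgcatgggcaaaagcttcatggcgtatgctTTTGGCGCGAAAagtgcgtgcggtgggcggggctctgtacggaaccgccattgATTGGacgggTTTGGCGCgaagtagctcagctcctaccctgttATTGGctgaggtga
Cdc20, chr4:118437344-118437593, minus strand: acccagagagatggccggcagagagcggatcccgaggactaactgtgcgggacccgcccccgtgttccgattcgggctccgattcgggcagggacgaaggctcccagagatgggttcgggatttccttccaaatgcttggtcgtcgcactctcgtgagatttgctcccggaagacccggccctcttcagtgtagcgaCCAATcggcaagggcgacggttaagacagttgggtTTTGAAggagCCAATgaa
Mki67, chr7:135716380-135716629, minus strand: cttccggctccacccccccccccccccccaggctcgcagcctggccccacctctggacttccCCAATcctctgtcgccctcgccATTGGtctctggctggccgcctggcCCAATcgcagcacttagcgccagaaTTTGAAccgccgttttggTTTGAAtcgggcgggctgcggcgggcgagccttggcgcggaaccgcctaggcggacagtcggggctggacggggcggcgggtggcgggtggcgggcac

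Mcm6 held 3 E2F matches, 2 of them overlapping, and 2 CCAAT boxes before its start, and Mcm3 held 3 CCAAT boxes before it and 2 E2F matches within the 50 bases after it. Cdc20 held 1 CHR match at 18 bases before its start between 2 CCAAT boxes, and Mki67 held 2 CHR matches and 3 CCAAT boxes. Windows of 300 bases around the start were given for 35 of the 43 genes (40 windows). CHR letters were in 15 of 20 windows of mitotic genes and in 17.9% of all 32851 windows, and E2F letters were in 4 of 11 windows of replication genes (36.4%) and in 2.26% of all windows. CCAAT letters were in 29 of the 40 member windows (72.5%) against 37.4% of all. These are matches of letters and were not tested as binding sites.

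A comparison needed a signal well above background in 3 or more hearts of some group, and 30 of the 43 genes met this. By group this held for 25 genes in control, 27 in TrbE14 and 30 in TrbE10 hearts. Well above background on all 12 arrays were 24 genes, and 11 were so on no array. By list, 8 of 9 G1 genes, 10 of 11 replication genes and 12 of 23 mitotic genes passed, and of all gene names on the array 51.7% did. In G1 and S the genes below background on every array were Ccne2, a second E-type cyclin, and Tyms, thymidylate synthase. Among mitotic genes these were Top2a (topoisomerase II alpha), Ccnb1 and its kinase Cdk1, the chromosomal passenger kinase Aurkb, the spindle checkpoint kinases Bub1 and Bub1b, the motors Kif11 and Kif2c, and Cenpf. Nusap1 was well above background on 1 array of each group and Tpx2 on 1 array of each mutant group, so neither passed. No change is given for these 13 genes.

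**Figure D1:**
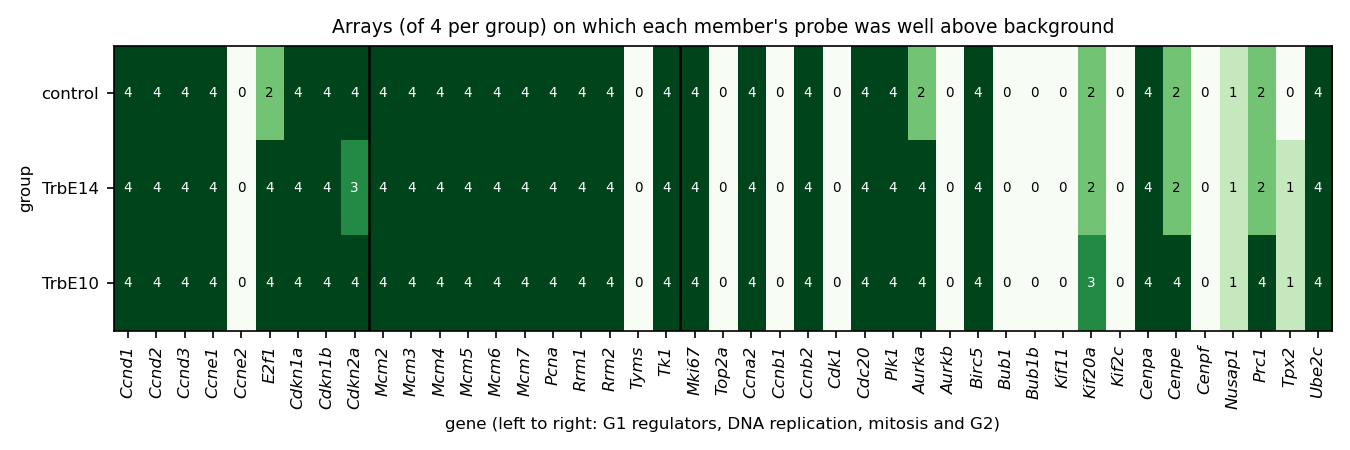
The number of arrays, of 4 per group, on which the brightest usable probe of each of the 43 genes was well above background, with genes in columns and groups in rows. Gaps of 0 lie mostly among the genes of mitosis and G2 on the right, and E2f1, Aurka, Cenpe and Prc1 reach 4 in TrbE10 from 2 in control hearts.

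Of the 30 genes, 5, namely E2f1, Aurka, Kif20a, Cenpe and Prc1, were well above background in only 2 of 4 control hearts and passed through a mutant group. Passing in that way already favours a higher value in the mutant, so counts over the 30 are descriptions and support nothing, and those over the 25 genes that passed in control hearts are given beside them. All levels below are quantile normalized log2 signals, and each probe's level was compared only with itself across hearts.

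Of the 30 genes tested, E2f1 and Mcm3 rose at an adjusted p under 0.05, both in TrbE10 hearts, and 0 fell. In TrbE10 against control this is 2 of 30 genes, where 1.28% of all 18021 genes tested were called higher and 0.649% lower. At an unadjusted p under 0.05, 8 of the 30 were higher (Aurka, Birc5, Ccna2, Cdc20, E2f1, Mcm3, Mcm6 and Mki67) and 0 were lower, against 7.80% and 9.0% of all genes. Over the 25 genes that passed in control hearts, 1 was called higher (Mcm3), and 6 were higher and 0 lower at an unadjusted p under 0.05. Of all 17163 genes that passed in control hearts, 190 were called higher, and 1160 were higher and 1602 lower at an unadjusted p under 0.05. The median change was 0.18 over the 25 genes and 0.25 over the 30. In TrbE14 against control, limma called 0 of 30 and so did SAM, with 0.533% of all genes called higher and 0.128% lower. There, 2 genes were higher (Cdc20 and E2f1) and 3 lower (Cdkn2a, Rrm1 and Rrm2) at an unadjusted p under 0.05, against 6.52% and 7.40% of all genes. Over the 25 genes that passed in control hearts, 1 was higher and 3 lower, against 1014 and 1332 of the 17163. TrbE10 hearts were all on 1 slide, scanned apart from the slide that held the control and TrbE14 hearts, so in every comparison with TrbE10 the slide and the group cannot be told apart, whereas control and TrbE14 hearts were compared within 1 slide.

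**Figure D2:**
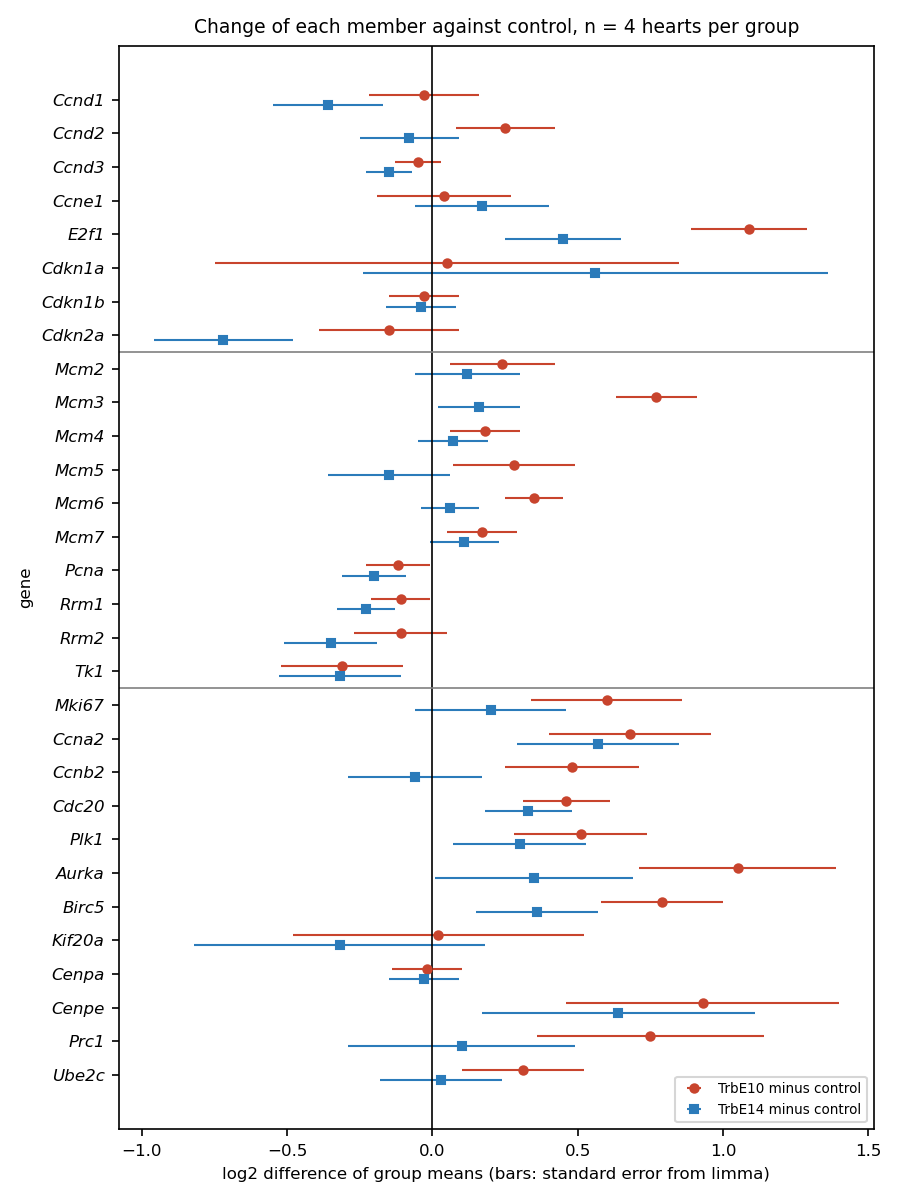
Difference of group means from control on the log2 scale (horizontal axis) for the 30 genes that passed, in TrbE10 (circles) and TrbE14 (squares) hearts, with bars of 1 standard error from limma and n = 4 hearts per group. E2f1 at 1.09 and Mcm3 at 0.77 in TrbE10 are the called changes, and 11 of the 12 mitotic genes at the bottom lie above 0 in TrbE10.

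E2f1 encodes a transcription factor that drives genes of DNA replication and is itself a target of E2F. Its probe (mm9 chr2:154385798-154385857) gave log2 signals of 5.10, 4.37, 4.44 and 5.16 in control, 5.12, 4.99, 5.37 and 5.39 in TrbE14, and 6.08, 5.90, 5.52 and 5.94 in TrbE10 hearts. Every TrbE10 heart lay above every heart of both other groups, and TrbE14 hearts lay between, overlapping with control. The 2 lowest control hearts, replicates 2 and 3, were not well above background. Against control the mean was higher by 1.09 ± 0.20 (SE) in TrbE10, a 2.13-fold difference (adjusted p = 0.0225), and by 0.45 ± 0.20 in TrbE14 (adjusted p = 0.355). Set directly against TrbE14, TrbE10 was higher by 0.64 ± 0.20 (adjusted p = 0.664). The signal was close to background, and with normexp background correction the difference between TrbE10 and control was 0.44 on the log2 scale (adjusted p = 0.0293). The adjusted p was 0.0516 without control replicate 2, 0.0620 without control replicate 3, 0.0660 without TrbE10 replicate 1 and 0.0605 without TrbE10 replicate 4.

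The D-type and E-type cyclins, which start the exit from G1, had no called change. Ccnd1, the cyclin induced by growth factors, gave 11.97, 11.11, 11.14 and 11.44 in control, 11.01, 11.20, 11.31 and 10.70 in TrbE14, and 11.35, 11.58, 11.25 and 11.35 in TrbE10 hearts. The groups overlapped, with the highest value in a control heart and the lowest in a TrbE14 heart, and the differences from control were -0.36 ± 0.19 in TrbE14 (adjusted p = 0.436) and -0.03 ± 0.19 in TrbE10 (adjusted p = 0.958). Ccnd2, a second D-type cyclin, gave 11.41, 11.28, 11.27 and 11.52 in control, 11.37, 11.23, 11.29 and 11.27 in TrbE14, and 12.12, 11.54, 11.67 and 11.15 in TrbE10 hearts. Here TrbE10 held the highest 3 values and also the lowest of all, and its difference from control was 0.25 ± 0.17 (adjusted p = 0.487). Ccnd3 stayed within 0.35 log2 units over the 12 hearts. Ccne1, which with CDK2 triggers DNA synthesis, gave 6.41, 6.74, 6.75 and 6.96 in control, 6.23, 6.87, 7.28 and 7.16 in TrbE14, and 6.35, 7.15, 6.70 and 6.84 in TrbE10 hearts. One heart of each group was low and the rest overlapped, and the changes were 0.17 ± 0.23 in TrbE14 and 0.04 ± 0.23 in TrbE10 (adjusted p = 0.762 and 0.954).

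The 3 CDK inhibitors behaved differently from each other. Cdkn1a, which encodes p21, a target of p53 and of many stress signals, gave 11.79, 11.09, 8.73 and 9.53 in control, 10.44, 9.47, 11.81 and 11.69 in TrbE14, and 9.25, 9.52, 10.61 and 11.96 in TrbE10 hearts. Its range over the 12 hearts was 3.23 log2 units, the widest of the 30 genes, with high and low hearts in every group, and the differences from control were 0.56 ± 0.80 in TrbE14 and 0.05 ± 0.80 in TrbE10 (adjusted p = 0.770 and 0.986). A second Cdkn1a probe, close to background and well above it on 3 control, 1 TrbE10 and 2 TrbE14 arrays, gave -1.0 ± 0.50 in TrbE10 and -0.94 ± 0.50 in TrbE14 (adjusted p = 0.356 and 0.437), so that the probes disagreed in sign. With such a spread a change of the size seen in E2f1 would not have been detectable in Cdkn1a. Cdkn1b, which encodes p27, an inhibitor kept high in resting cells, gave 10.07, 10.06, 10.28 and 10.20 in control, 10.22, 10.30, 9.89 and 10.02 in TrbE14, and 10.32, 9.97, 10.24 and 9.96 in TrbE10 hearts. All 12 lay within 0.43 log2 units, and the differences from control were -0.04 ± 0.12 and -0.03 ± 0.12 (adjusted p = 0.886 in TrbE14 and 0.938 in TrbE10). On another Cdkn1b probe, close to background, hearts ranged more widely, from 4.06 to 5.79. There the changes were 0.03 ± 0.31 in TrbE14 and -0.40 ± 0.31 in TrbE10 (adjusted p = 0.977 and 0.560).

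Cdkn2a, which encodes p16 and ARF, gave 5.94, 5.81, 5.07 and 6.03 in control, 4.80, 4.49, 5.33 and 5.36 in TrbE14, and 5.37, 5.72, 5.75 and 5.39 in TrbE10 hearts. TrbE14 was the low group, every one of its hearts lying below all TrbE10 hearts, but only just, with 5.36 against 5.37 at the nearest. In control, 1 heart fell among the TrbE14 values, and TrbE14 replicate 2 was not well above background. Against control the change was -0.72 ± 0.24 in TrbE14 (adjusted p = 0.254) and -0.15 ± 0.24 in TrbE10 (adjusted p = 0.798), and TrbE10 was higher than TrbE14 by 0.56 ± 0.24 (adjusted p = 0.856). The difference between TrbE14 and control was -0.32 with normexp background correction. A second Cdkn2a probe was above background on no array.

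Mcm3 encodes a subunit of the MCM2-7 helicase, which is loaded on replication origins in G1 and unwinds DNA in S phase. Its brighter probe (mm9 chr1:20793136-20793195) gave 8.21, 8.16, 7.99 and 7.87 in control, 8.02, 7.93, 8.49 and 8.41 in TrbE14, and 8.93, 8.65, 8.85 and 8.89 in TrbE10 hearts. All TrbE10 hearts lay above all others, and 2 TrbE14 hearts lay above the controls while the other 2 lay among them. The mean was higher than in control by 0.77 ± 0.14 in TrbE10, or 1.71-fold (adjusted p = 0.0208), and by 0.16 ± 0.14 in TrbE14 (adjusted p = 0.626). TrbE10 was higher than TrbE14 by 0.62 ± 0.14, with an adjusted p of 0.376, the lowest among the 30 genes in that comparison.

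A second Mcm3 probe overlaps the first on the genome (mm9 chr1:20793119-20793178) but was annotated to another transcript record. It gave 7.20, 7.0, 6.79 and 6.80 in control, 7.90, 7.58, 7.26 and 7.30 in TrbE14, and 7.66, 7.25, 7.81 and 7.84 in TrbE10 hearts. On this probe both mutant groups lay above every control heart and overlapped each other, with changes of 0.70 ± 0.17 in TrbE10 (adjusted p = 0.0741) and 0.57 ± 0.17 in TrbE14 (adjusted p = 0.214). The probes thus gave like values in TrbE10 and differed in TrbE14, where the change was 0.16 on one and 0.57 on the other. The adjusted p of the brighter probe in TrbE10 was 0.0599 without control replicate 3, 0.0689 without control replicate 4, and 0.0605, 0.0672 and 0.0574 without TrbE10 replicates 1, 3 and 4.

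Mcm6, another subunit of the helicase, gave 10.10, 10.13, 10.08 and 10.07 in control, 10.30, 10.27, 10.14 and 9.94 in TrbE14, and 10.63, 10.41, 10.36 and 10.40 in TrbE10 hearts. Control hearts were nearly equal, and the 4 TrbE10 hearts lay above the other 8. The difference between TrbE10 and control was 0.35 ± 0.10, or 1.28-fold, with an adjusted p of 0.0935, and that between TrbE14 and control was 0.06 ± 0.10 (adjusted p = 0.782). Mcm2 gave 6.42, 6.19, 5.57 and 6.32 in control, 5.96, 6.27, 6.51 and 6.24 in TrbE14, and 6.34, 6.27, 6.31 and 6.56 in TrbE10 hearts. The groups overlapped, 1 control heart being the lowest of all, and the changes were 0.24 ± 0.18 in TrbE10 and 0.12 ± 0.18 in TrbE14 (adjusted p = 0.535 and 0.782). The remaining subunits measured, Mcm4, Mcm5 and Mcm7, had changes of 0.18, 0.28 and 0.17 in TrbE10, none with an adjusted p under 0.05.

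Pcna, the sliding clamp of the replicative polymerases and of DNA repair, gave 10.72, 10.65, 10.66 and 10.85 in control, 10.75, 10.66, 10.28 and 10.40 in TrbE14, and 10.68, 10.53, 10.58 and 10.57 in TrbE10 hearts. The groups overlapped, and the changes were -0.12 ± 0.11 in TrbE10 and -0.20 ± 0.11 in TrbE14 (adjusted p = 0.609 and 0.443).

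The genes that supply nucleotides had negative changes in both mutant groups, none of which passed the test. Rrm1, the large subunit of ribonucleotide reductase, gave 8.74, 8.63, 8.76 and 8.51 in control, 8.56, 8.58, 8.32 and 8.25 in TrbE14, and 8.72, 8.48, 8.45 and 8.56 in TrbE10 hearts. Its lowest 2 values were in TrbE14 hearts, the groups overlapped, and the change was -0.23 ± 0.10 in TrbE14 (adjusted p = 0.362) and -0.11 ± 0.10 in TrbE10 (adjusted p = 0.667). Rrm2, the small subunit, which limits the enzyme in S phase, gave 7.36, 7.03, 7.18 and 7.28 in control, 6.89, 7.09, 6.78 and 6.71 in TrbE14, and 6.78, 7.50, 6.87 and 7.27 in TrbE10 hearts. In TrbE14, 3 of 4 hearts lay below every control heart, with a change of -0.35 ± 0.16 (adjusted p = 0.368), while TrbE10 hearts were split, 2 below every control heart, 1 among the controls and 1 above them. Tk1, thymidine kinase 1, changed by -0.31 ± 0.21 in TrbE10 and -0.32 ± 0.21 in TrbE14 (adjusted p = 0.506 and 0.513).

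Over the 10 replication genes that passed, which all passed in control hearts too, the median change was 0.17 in TrbE10 and -0.04 in TrbE14, against -0.02 and -0.03 over all genes tested. The 6 helicase subunits had the positive values in TrbE10, and Pcna, Rrm1, Rrm2 and Tk1 the negative ones.

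**Figure D3:**
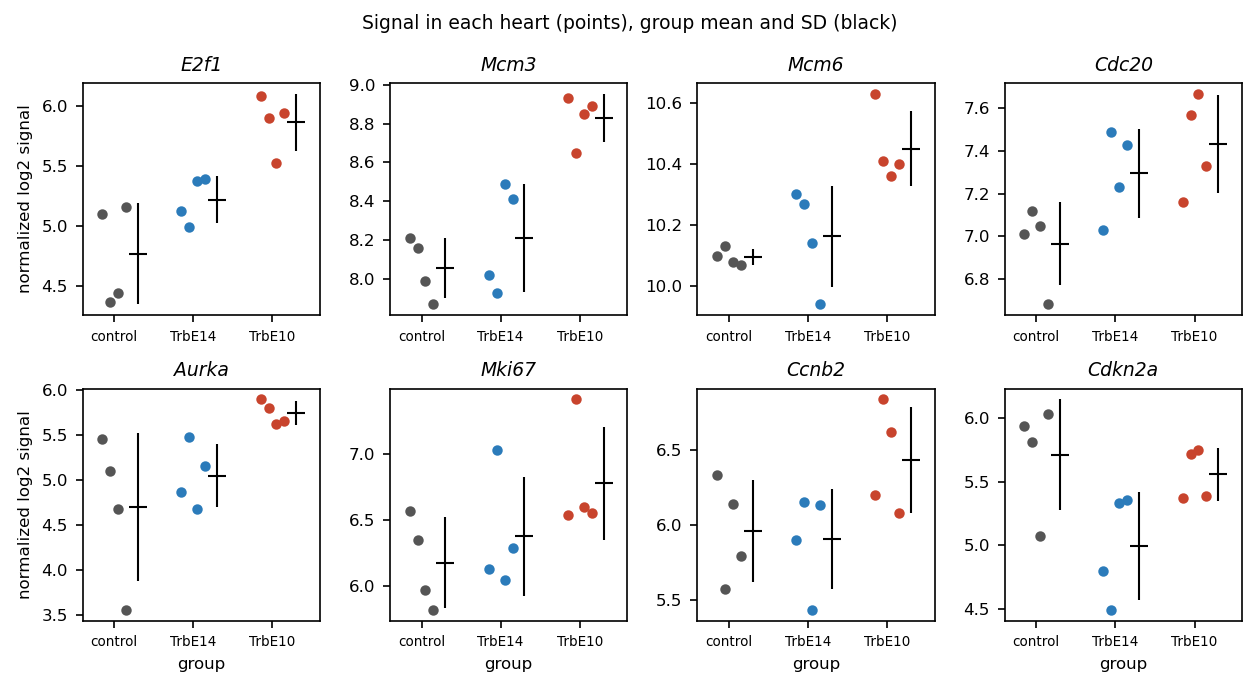
Normalized log2 signal of 8 genes by group, with a point for each heart and a black bar for the mean and SD of 4 hearts. TrbE10 hearts lie apart from control hearts for E2f1, Mcm3, Mcm6, Cdc20 and Aurka, and TrbE14 hearts are the low group for Cdkn2a.

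Among the genes of G2 and mitosis no change was called, and in TrbE10 hearts 11 of 12 genes had a positive change (10 with scaling to the 75th percentile, where Kif20a turned), with a median of 0.55, where 45.2% of all genes were positive. In TrbE14 hearts 9 of 12 were positive (11 with normexp background correction) with a median of 0.25, where 44.1% of all genes were positive. Aurka, Cenpe, Prc1 and Kif20a had passed through a mutant group, which favours a positive value. Over the 8 genes that passed in control hearts, 7 were positive in TrbE10 and 6 in TrbE14, where 43.5% and 42.5% of all genes that passed in control hearts were positive. The medians of the 8 were 0.49 and 0.25. Among 26 other mitotic genes that passed, from the wider list below, 18 were positive in TrbE10 with a median of 0.21. In TrbE14, 12 of those 26 were positive with a median of -0.03. The median of the 12 in TrbE10 was 0.24 with normexp background correction, and that in TrbE14 was 0.11 with it, 0.06 with sex as a covariate, and 0.09 without control replicate 4 or without TrbE14 replicate 2.

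Mki67, the gene of the Ki-67 protein that marks cycling cells, gave 6.57, 6.35, 5.97 and 5.82 in control, 6.13, 7.03, 6.05 and 6.29 in TrbE14, and 6.54, 7.41, 6.60 and 6.55 in TrbE10 hearts. One heart of each mutant group, replicate 2 in both, stood above the rest, and the highest control heart lay within the TrbE10 range. The change was 0.60 ± 0.26 in TrbE10 (adjusted p = 0.292) and 0.20 ± 0.26 in TrbE14 (adjusted p = 0.757). In TrbE10 it was 0.39 without TrbE10 replicate 2 and 0.34 with normexp background correction. In TrbE14 it was -0.02 without TrbE14 replicate 2 and -0.01 with sex as a covariate. A second Mki67 probe gave 0.74 and 0.37 (adjusted p = 0.225 and 0.566).

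Ccna2, the cyclin of S phase and G2, gave 5.64, 5.25, 5.44 and 5.38 in control, 5.23, 6.86, 6.04 and 5.86 in TrbE14, and 5.82, 6.51, 6.09 and 6.04 in TrbE10 hearts. Every TrbE10 heart lay above every control heart, and so did 3 of 4 TrbE14 hearts, the fourth being the lowest of all. The changes were 0.68 ± 0.28 and 0.57 ± 0.28 (adjusted p = 0.258 in TrbE10 and 0.397 in TrbE14). With normexp background correction they were 0.29 and 0.30. In TrbE14 the change was 0.28 without TrbE14 replicate 2 and 0.82 without TrbE14 replicate 1. Ccnb2, a mitotic cyclin, gave 6.33, 5.57, 6.14 and 5.79 in control, 5.90, 6.15, 5.43 and 6.13 in TrbE14, and 6.20, 6.84, 6.62 and 6.08 in TrbE10 hearts. In TrbE10, 2 hearts exceeded all others, 1 lay above every TrbE14 heart but not every control heart, and 1 lay among both groups. TrbE10 was higher than TrbE14 by 0.53 ± 0.23 (adjusted p = 0.856) and than control by 0.48 ± 0.23 (adjusted p = 0.322).

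Cdc20, the activator of the anaphase-promoting complex, gave 7.01, 7.12, 7.05 and 6.68 in control, 7.03, 7.49, 7.23 and 7.43 in TrbE14, and 7.16, 7.57, 7.67 and 7.33 in TrbE10 hearts. All TrbE10 hearts and 3 of 4 TrbE14 hearts lay above the highest control heart. The changes were 0.46 ± 0.15, or 1.38-fold, in TrbE10 and 0.33 ± 0.15, or 1.26-fold, in TrbE14 (adjusted p = 0.146 and 0.357).

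Aurka, the kinase of the centrosome and spindle poles, gave 5.46, 5.10, 4.68 and 3.55 in control, 4.86, 5.48, 4.68 and 5.16 in TrbE14, and 5.90, 5.80, 5.62 and 5.66 in TrbE10 hearts. TrbE10 hearts were close together and above all 8 others, while control hearts were spread, replicates 3 and 4 not being well above background. The change in TrbE10 was 1.05 ± 0.34 (adjusted p = 0.157). It was 0.66 without control replicate 4, the lowest heart, and 0.33 with normexp background correction, and the adjusted p was 0.0344 on the authors' normalized values. In TrbE14 the change was 0.35 ± 0.34 (adjusted p = 0.663).

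Birc5, which encodes survivin of the chromosomal passenger complex, gave 6.73, 6.35, 6.24 and 6.06 in control, 6.40, 7.07, 6.55 and 6.81 in TrbE14, and 6.62, 7.41, 7.14 and 7.33 in TrbE10 hearts. In TrbE10, 3 hearts lay above all controls and the fourth lay just below the highest control heart. The change was 0.79 ± 0.21, or 1.72-fold, in TrbE10 (adjusted p = 0.0871, and 0.0403 with sex as a covariate) and 0.36 ± 0.21 in TrbE14 (adjusted p = 0.455). The other mitotic genes ranged from -0.02 for Cenpa, the centromeric histone, to 0.93 for Cenpe, a kinetochore motor, in TrbE10 hearts.

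All TrbE10 hearts lay above all control hearts for 6 of the 30 genes, namely E2f1, Mcm3, Mcm6, Ccna2, Cdc20 and Aurka, and below them for 0. Of these 6, E2f1 and Aurka had not passed in control hearts. Over all genes 4.94% lay apart upward and 5.63% downward. On the brighter probe of each gene, TrbE14 hearts lay apart from control in either direction for 0 of the 30 genes (the second Mcm3 probe did lie apart), against 4.65% and 5.43% of all genes. For any gene that lies apart, the two-sided exact permutation test must give p = 0.0286, the smallest that 4 against 4 hearts allow. This p therefore adds nothing to the separation itself.

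**Figure D4:**
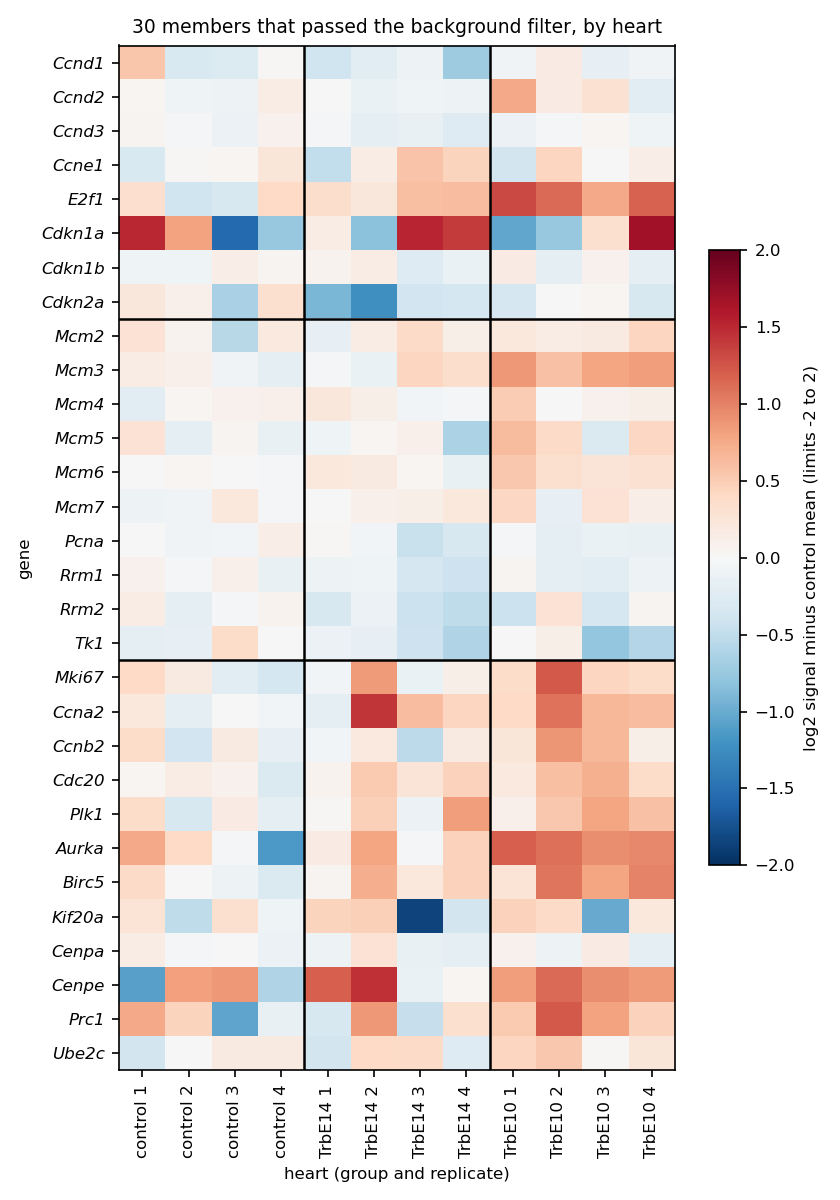
Log2 signal of the 30 genes that passed (rows) in each of the 12 hearts (columns), as the difference from the mean of the 4 control hearts, red above and blue below. Red is most common among mitotic genes in TrbE10 hearts and in TrbE14 replicate 2, and the row of Cdkn1a holds both red and blue hearts in every group.

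By heart, the 8 mitotic genes that passed in control hearts had median deviations from the control mean of 0.29, -0.02, 0.05 and -0.18 in control, -0.05, 0.50, 0.05 and 0.30 in TrbE14, and 0.26, 0.74, 0.66 and 0.36 in TrbE10 hearts. The highest control heart lay just above the lowest TrbE10 heart, and TrbE14 replicates 2 and 4 lay within the range of the TrbE10 hearts. For the 10 replication genes the same medians were 0.04, -0.04, 0.01 and -0.01 in control, -0.06, -0.01, 0.00 and -0.24 in TrbE14, and 0.31, 0.13, -0.03 and 0.12 in TrbE10 hearts. Here 3 TrbE10 hearts exceeded all controls and replicate 3 did not.

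Set directly against each other, the mutant groups differed in 0 of the 30 genes tested at an adjusted p under 0.05 by limma and in 0 by SAM, and of all 18021 genes limma called 0, or 0% in each direction. At an unadjusted p under 0.05, 5 of 30 were higher in TrbE10 (Ccnb2, Cdkn2a, E2f1, Mcm3 and Mcm6) and 0 lower, against 2.92% and 3.04% of all genes. E2f1, Mcm3, Mcm6, Cdkn2a and Aurka had all TrbE10 hearts above all TrbE14 hearts, against 1.64% of all genes, and 0 genes of the 30 had them all below, against 1.73%. For Cdkn2a the nearest hearts were almost equal, at 5.37 in TrbE10 and 5.36 in TrbE14. The difference was positive in 28 of 30 genes, with Ccne1 and Cdkn1a as the exceptions (27 with scaling to the 75th percentile and 24 with normexp), where 51.2% of all genes were positive. Cenpe, Prc1 and Kif20a had passed through TrbE10 alone, which favours a positive difference. Over the 25 genes that passed in control hearts 23 were positive, where 50.9% of all genes that passed in control hearts were positive. The median was 0.26 over the 30 genes and 0.13 over the 25, and the former was 0.11 with normexp background correction.

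A wider list of 135 cell cycle genes, none of them among the 43, was set beside these. Of its genes, 85 passed, and 82 passed in control hearts. In TrbE10 hearts limma called 3 of the 85 higher than control and 0 lower, against 1.28% and 0.649% of all genes. All 3 had passed in control hearts. In TrbE14 hearts 0 were called, against 0.533% and 0.128% of all genes, and between the mutants limma called 0. At an unadjusted p under 0.05, 15 were higher and 1 lower in TrbE10, 8 higher and 3 lower in TrbE14, and 7 higher and 0 lower in TrbE10 against TrbE14. The shares of all genes were 7.80% and 9.0%, 6.52% and 7.40%, and 2.92% and 3.04% in the same order. Over the 82 genes that passed in control hearts, 13 were higher and 1 lower in TrbE10, and 8 were higher and 3 lower in TrbE14. Against TrbE14, 6 of the 82 were higher in TrbE10 and 0 lower. Of all 17163 genes that passed in control hearts, 1160 and 1602, 1014 and 1332, and 458 and 511 were so in the same order. Median changes were 0.12 in TrbE10 and 0.07 in TrbE14 over the 85 genes, and 0.11 and 0.05 over the 82. Between the mutants the difference was positive in 52 of the 85 genes, with a median of 0.04, where 51.2% of all genes were positive. The called genes were Cdt1, Spc25 and Smc4.

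Cdt1, which loads the MCM helicase on origins, gave 6.93, 6.64, 6.75 and 7.26 in control, 7.17, 7.30, 7.65 and 7.41 in TrbE14, and 7.74, 7.49, 7.51 and 7.88 in TrbE10 hearts. All TrbE10 hearts lay above all controls and TrbE14 hearts lay between with overlap, for changes of 0.76 ± 0.15 (adjusted p = 0.0346) and 0.49 ± 0.15 (adjusted p = 0.221). Spc25, a subunit of the NDC80 kinetochore complex, gave 6.56, 6.43, 6.85 and 6.69 in control, 6.61, 6.55, 7.0 and 7.08 in TrbE14, and 7.27, 7.36, 7.52 and 7.50 in TrbE10 hearts. TrbE10 hearts lay above both other groups, with changes from control of 0.78 ± 0.14 in TrbE10 (adjusted p = 0.0195) and 0.18 ± 0.14 in TrbE14 (adjusted p = 0.579). Smc4, a condensin subunit, gave 7.90, 7.82, 7.99 and 7.75 in control, 8.17, 8.07, 7.97 and 8.11 in TrbE14, and 8.41, 8.17, 8.22 and 8.22 in TrbE10 hearts. All TrbE10 hearts and 3 of 4 TrbE14 hearts lay above every control heart, for changes of 0.39 ± 0.08 in TrbE10 (adjusted p = 0.0444) and 0.22 ± 0.08 in TrbE14 (adjusted p = 0.304).

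Summed linear signals of macrophage, endothelial and fibroblast markers, in which the brightest genes weigh most, were higher in every mutant heart than in every control heart. Single markers differed. By median log2 deviation from the control mean, groups overlapped in each list. Macrophage medians were 0.19 in control replicate 3 and 0.16 in TrbE14 replicate 4. Endothelial medians were 0.08 in control replicate 2 and 0.07 in TrbE10 replicate 4. Fibroblast medians were 0.21 in control replicate 2 and 0.06 in TrbE14 replicate 4. In each list the other mutant hearts lay above every control heart. The summed linear signal of 10 macrophage markers that passed in control hearts was 18600 to 21000 in control, 24400 to 28000 in TrbE14 and 26900 to 31300 in TrbE10 hearts. Of these 10, 4 were called higher in TrbE10 and 1 in TrbE14, against 190 and 77 of the 17163 genes that passed in control hearts. Itgam changed by -0.09 in TrbE10 and Mrc1 by -0.06 in TrbE14, the only negative changes of the 10. Fcgr1 and Cd163, which passed through a mutant group, are left out. Sums of 8 endothelial markers were 14000 to 17700 in control, 21800 to 26800 in TrbE14 and 21100 to 27400 in TrbE10 hearts. Those of 8 fibroblast markers were 71300 to 79500, 93700 to 112000 and 89900 to 107000 in the same order. Endothelial changes were positive in 7 of 8 genes in each mutant group, from -0.10 for Tie1 to 1.09 for Vwf in TrbE10. Fibroblast changes were positive in 8 of 8 genes in TrbE10 and 7 of 8 in TrbE14, where Lum changed by -0.14. Cardiomyocyte markers summed to between 1050000 and 1170000 in every heart, a sum in which the brightest genes weigh most. In TrbE10, 3 of the 10 changes were positive. Ryr2 (-0.41), Ttn (-0.20) and Actn2 (-0.19) had all TrbE10 hearts below all control hearts, against 5.63% of all genes. None of these was called (adjusted p = 0.0918, 0.236 and 0.263). In TrbE14, 4 of the 10 changes were positive. Ccr2 of monocytes, Cd8a, Ms4a1 and Klrb1c of lymphocytes, and Klf1 of red cell precursors were above background on no array, while 5 lymphocyte markers summed to 725 to 818 in control, 760 to 984 in TrbE14 and 772 to 895 in TrbE10 hearts and 6 erythroid markers to 42700 to 100000, 67400 to 117000 and 38900 to 155000, with overlap in both lists. Of the 5 lymphocyte markers, 1, Cd79b, had every mutant heart above every control heart, against 4.94% of all genes in TrbE10 and 4.65% in TrbE14. It changed by 0.97 ± 0.22 in TrbE10 and 0.93 ± 0.22 in TrbE14 (adjusted p = 0.0559 and 0.106). Changes were positive in 3 of the 5 in TrbE10 and 4 in TrbE14. Smooth muscle sums of 5 markers were 17000 to 31800 in control, 26100 to 50800 in TrbE14 and 21800 to 47400 in TrbE10 hearts. Their median change was 0.75 in TrbE14 and 0.01 in TrbE10. Between the mutants, 4 of the 5 were lower in TrbE10 at an unadjusted limma p under 0.05, against 3.04% of all genes. Sums of 3 mast cell markers were 176 to 302, 379 to 687 and 270 to 915, and those of 4 atrial muscle markers 11900 to 68400, 77200 to 95500 and 41300 to 159000, in control, TrbE14 and TrbE10 hearts. Within these lists Kit changed by -0.16 in TrbE10 and -0.53 in TrbE14 while Mcpt4 changed by 2.27 and 2.38, and Myl4 and Myl7 changed by -0.09 and -0.12 in TrbE10 while Sln and Nppa changed by 3.80 and 2.07. The part of these cells in the values of the cell cycle genes was not tested.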

How the data were processed

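Left ventricular RNA of 12 mice, 4 per group, was measured on 12 one-colour arrays. For each array the authors deposited scanner output (Agilent Feature Extraction 10.5, per the submitters' processing notes), whose processed signal is an intensity with each array's own background taken off and no scaling between arrays. They also deposited log2 values after quantile normalization, used here only as an alternative, and per the methods kept probes above background at a 75% filter before a SAM test. Probe coordinates are those of the files (mm9), start-site sequences are from RefSeq (GRCm38.p6), and neither was converted.

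Here the log2 of these signals was quantile normalized (limma 3.58.1, run in R 4.3.3) without control spots and with 93 to 131 outlier spots per array as missing values, and repeat spots of each probe were replaced by their mean. A probe entered the fit when well above background on at least 3 of 4 arrays of any group, which left 24593 probes of 18021 genes. Low signals are sensitive to the background correction. No spot was saturated (0 on every array), the 75th percentile of the signal was 194 to 250, and the number of arrays limits precision. Arrays correlated at 0.968 to 0.9899, so none was a duplicate. Each gene was followed on its kept probe with the highest mean. limma was fitted with 1 mean per group (residual degrees of freedom 9, prior 2.19). Benjamini-Hochberg adjustment ran over all 24593 probes within each comparison. Every adjusted p comes from limma. Exact permutation tests used all 70 orders of 8 arrays. The method was tested on simulated data. Arrays of a group are of different mice, so p-values are based on the spread between mice within groups. The sexes were mixed and not balanced between groups: Y-linked genes were well above background on 1 of 4 control, 2 of 4 TrbE10 and 3 of 4 TrbE14 arrays. A difference between groups can therefore hold a part due to sex, and with TrbE10 a part due to slide. The p-values of the main fit do not account for either.

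Heart-by-heart values are given for 12 genes that represent the phases (where above background), for every other gene of the 43 with an unadjusted p under 0.05 in any comparison, and for further cell cycle genes with an adjusted p under 0.05. The 43 genes, the lists and the tests were chosen with earlier results of these data known. The settings tried besides were normexp (offset 50), scaling to the 75th percentile, no filter or one asking for 9 of 12 arrays, the authors' values, fits of 2 groups, replicate blocks, SAM at 5% false discoveries, sex from Y-linked genes, the mean over probes and each array left out. Slide could not be fitted as a block apart from TrbE10. Plots were made with matplotlib 3.10.9.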

Additional observations from a re-analysis of the deposited data

Results flagged for a closer look

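Of 90 sets of 4 hearts, 3 held a heart far from the rest by Dixon's test, where chance marks about 1 in 20 sets. Mki67 was 7.41 in TrbE10 replicate 2 and 6.54 to 6.60 in the other TrbE10 hearts. Kif20a, a motor of the central spindle, was 4.28 in TrbE10 replicate 3, where it was not well above background, and 5.50 to 5.75 in the others. Cenpa was 10.67 in TrbE14 replicate 2 and 10.20 to 10.27 in the others.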

How the results depend on the processing

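In TrbE10 against control, 2 genes were called, and the count was 0 with no filter, 1 with a fit of 2 groups only (Mcm3), 1 with replicate blocks (E2f1, Mcm3 having an adjusted p of 0.0519), 2 or 3 under the other settings, and 0 to 2 when each array was left out. It was 0 without control replicate 3 and without TrbE10 replicates 1 or 4, and 1 without control replicates 2 or 4 or TrbE10 replicate 3. In TrbE14 against control and between the mutants the count was 0 under every setting, where the unadjusted limma counts were 5 and 5. The median change over the 30 genes in TrbE10 moved from 0.25 to 0.19 with scaling to the 75th percentile and 0.17 with normexp, and ranged from 0.22 to 0.31 with arrays left out; in TrbE14 it was 0.07 and ranged from -0.04 (without TrbE14 replicate 2) to 0.08. Between the mutants it moved from 0.26 to 0.15, 0.11 and, on the authors' values, 0.18, and ranged from 0.17 to 0.32. The median of the mitotic genes in TrbE10 moved from 0.55 to 0.24 with normexp and ranged from 0.46 to 0.66. The cause of these shifts was not tested. E2f1 and Mcm3 kept their direction in TrbE10 under every setting run; genes outside the 43 were not refitted. With the mean over probes the change of Cdkn1a was -0.48 in TrbE10 and -0.19 in TrbE14, where its brighter probe gave 0.05 and 0.56. Of 12 pairs of same-numbered hearts, 3 had deviations correlated above 0.1, and all 3 were pairs of TrbE10 with TrbE14 (0.37, 0.31 and 0.48, the fourth being -0.01). Pairs with a control heart had correlations of -0.24 to 0.08. Replicate numbers thus did not pair control with mutant hearts, and whether they paired the mutant hearts was not tested. Between the mutants 0 of the 30 genes were called with the block too. With the replicate number as a block, limma called 316 probes in TrbE10 against 416 without it, and 146 against 148 in TrbE14. No gene below background on an array could be ordered there, which limits the mitotic genes most.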
